A study of Homo sapiens with 20 samples.

Results

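The cytosolic heat shock chaperones described here are 10 genes, HSPB1, HSPH1, HSPA1A, HSPA2, HSPA4, HSPA8, HSP90AA1, HSP90AB1, DNAJB1 and BAG3, read on 20 expression arrays of a human liver cell line. Every probe set annotated with exactly 1 of these symbols was taken, which gave 17 of the 22215 probe sets and 8 of the 11963 genes that have a probe set of their own. All 17 passed the filter on low values. HSPA1A and HSPA8 had no such probe set: the 6 that name them also name HSPA1B, HSPA1L or the small nucleolar RNAs SNORD14C and SNORD14D. Those 6 are given by probe set ID, are attributed to no single gene and enter no count of members.

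Heat shock chaperones bind proteins that are unfolded, newly made or partly folded, keep them from clumping and help them fold. Small heat shock proteins such as HSPB1 hold unfolded proteins without using ATP, the Hsp70 proteins bind and release them in an ATP cycle, and the Hsp90 proteins act later on kinases, receptors and other clients. J proteins such as DNAJB1 start the Hsp70 cycle, while nucleotide exchange factors such as the Hsp110 proteins and BAG3 reset it. Many of the genes are switched on by heat shock factor 1, which binds inverted repeats of GAA and TTC called heat shock elements, and HSP90AB1 and HSPA8 are known as forms made at high levels in unstressed cells.

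The cells were THLE-3, an established human line from adult liver epithelium that carries the SV40 large T antigen. The labels give a low leucine level of 0.1 mM, a high level of 2.0 mM and sampling at 0, 30, 60, 120 and 480 min, and the series title gives the question as the effect of leucine on liver cell lines. Each of the 10 groups held 2 arrays, 1 from a first and 1 from a second experiment. The labels name no other agent and leave unstated the medium before 0 min and whether an experiment is a separate culture. The p-values therefore cover only the spread between these arrays, which may be technical.

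To show what the promoters of these genes hold, the 250 bases before each RefSeq transcription start (GRCh38.p14) were searched for a pair of inverted heat shock element units, GAANNTTC or TTCNNGAA. Each of these reads the same on both strands, and neighbouring pairs can share a unit. Such a pair was in 6 of the 15 windows of the members, against 11.6% of all 35116 windows in the RefSeq table. These windows belong to 6 of the 10 genes, and no share by gene was computed over all genes. Runs of 3 alternating units were in 3 of the 15 windows, from HSPA8, HSP90AA1 and HSP90AB1, against 0.441% of all windows. A match is a description of the letters and not a measured binding site. The 4 windows below, 5′ to 3′ along the gene, were chosen because they hold such a pair and a probe set of the gene alone was read. HSPB1, DNAJB1 and HSP90AA1 were higher in high leucine at 480 min in the fit with an experiment term, and HSP90AB1 did not pass. HSPH1 and HSPA2 were also higher there, and their windows held no pair, so the 4 windows do not stand for the genes that were higher. Capitals mark the matches. The HSPB1 window is chr7:76302423-76302672 (plus strand), the DNAJB1 window is chr19:14518398-14518647 (minus strand) before the second of its 3 listed starts, the HSP90AA1 window is chr14:102087045-102087294 (minus strand) before the second of 2, and the HSP90AB1 window is chr6:44247693-44247942 (plus strand) before the third of 3.
HSPB1: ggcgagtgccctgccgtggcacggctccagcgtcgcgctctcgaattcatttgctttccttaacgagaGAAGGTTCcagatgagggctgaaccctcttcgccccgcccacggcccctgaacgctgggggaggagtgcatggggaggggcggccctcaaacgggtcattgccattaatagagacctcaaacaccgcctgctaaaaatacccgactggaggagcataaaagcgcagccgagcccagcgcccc
DNAJB1: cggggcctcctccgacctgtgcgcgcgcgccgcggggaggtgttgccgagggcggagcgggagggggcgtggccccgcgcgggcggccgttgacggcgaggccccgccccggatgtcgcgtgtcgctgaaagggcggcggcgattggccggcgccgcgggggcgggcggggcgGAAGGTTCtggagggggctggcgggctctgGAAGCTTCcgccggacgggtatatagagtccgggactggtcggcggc
HSP90AA1: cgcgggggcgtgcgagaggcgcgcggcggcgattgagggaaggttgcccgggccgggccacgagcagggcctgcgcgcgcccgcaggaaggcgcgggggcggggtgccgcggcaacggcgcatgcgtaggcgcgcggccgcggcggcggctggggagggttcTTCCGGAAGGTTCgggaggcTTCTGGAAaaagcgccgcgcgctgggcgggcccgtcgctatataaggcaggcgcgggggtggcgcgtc
HSP90AB1: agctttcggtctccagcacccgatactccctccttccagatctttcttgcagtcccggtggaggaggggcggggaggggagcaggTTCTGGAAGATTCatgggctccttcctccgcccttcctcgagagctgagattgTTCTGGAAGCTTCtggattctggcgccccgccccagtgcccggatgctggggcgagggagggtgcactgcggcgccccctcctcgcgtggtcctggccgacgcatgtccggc
The HSPB1 match lay 182 to 175 bases before the start, and the DNAJB1 matches lay 77 to 70 and 47 to 40 bases before it. HSP90AA1 had a run of 3 units from 88 to 76 bases before the start and a further pair at 68 to 61. HSP90AB1 had 2 runs, at 165 to 153 and at 112 to 100. The windows of HSPH1, HSPA2, HSPA4 and BAG3 held neither pair, which says only that these letters are not in those 250 bases.

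**Figure D1:**
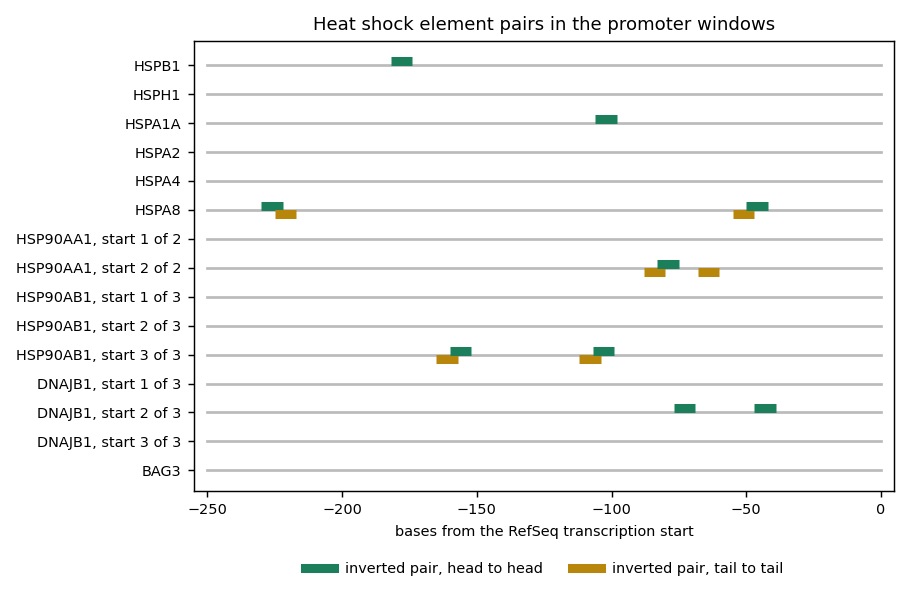
Position of inverted pairs of heat shock element units in the 15 promoter windows of the 10 genes. Each grey line is 1 window, the horizontal axis gives bases from the RefSeq start, green bars are head-to-head pairs and ochre bars tail-to-tail pairs. Pairs are drawn in 6 windows, and overlapping bars mark runs of 3 units.

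Intensities are the deposited linear values in arbitrary units, and array medians ran from 433.2 to 492.9. Each probe set binds its target with its own strength, so the levels of members are not compared with each other. In the probe set IDs the ending _s_at marks probes that match several transcripts, and _x_at marks probes that can also match other sequences. The label of the cells was set against markers by the percentile of each gene's leading probe set among all probe sets, before the filter. It is a coarse rank that the same differences in binding affect. The epithelial keratins KRT8, KRT18 and KRT19 lay at 97.4, 99.1 and 96, and the mesenchymal genes VIM, SPARC, COL1A1 and COL1A2 at 99.2, 98.6, 92.3 and 52. Of 8 measured hepatocyte genes 5 passed the filter: CYP3A4 (90), APOA1 (67.1), TTR (52.8), SERPINA1 (48.7) and FGB (45.3). Albumin (ALB, 9.92), APOA2 (14.5) and TF (22) did not. Of 4 measured blood and endothelial genes CD3E (50.4) and PECAM1 (42.5) passed, and PTPRC (39) and CDH5 (2.84) did not. All arrays are bulk RNA, where fewer cells and less RNA per cell cannot be told apart. The arrays differed by experiment at 62% of probe sets, so each comparison is given by a fit without a term for the experiment (the unblocked fit, which is the main one) and with it (the blocked fit). Both give the same log2 difference, each ± is the standard error of the fit named, with n = 2 arrays per group, and a probe set is called higher or lower only at an adjusted p under 0.05.

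At 480 min HSPB1, HSPH1, HSPA2, DNAJB1 and HSP90AA1 were higher in high than in low leucine in the blocked fit, by 0.25 to 0.87 on the log2 scale. HSPH1 and HSPA2 alone among the members were also called in the unblocked fit. HSPA4, HSP90AB1 and BAG3 had no called probe set in either fit. In counts, the unblocked fit called 2 of the 17 probe sets, against 0.27% of all 13329 probe sets in either direction and 0.113% as higher. The blocked fit called 9 probe sets of 5 genes, all higher, against 4.09% of all in either direction and 2.48% as higher. All 17 estimates lay above 0, with a median of 0.28, while the median of all probe sets was -0.01.

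The calls depended on single arrays. Without the high-leucine array of the second experiment at 480 min the blocked count fell from 9 to 3, and without the low-leucine array of that experiment at 480 min to 4. The unblocked count was 0 without any 1 of the 4 arrays at 480 min, and also without either high-leucine array at 120 min or the second experiment's high-leucine array at 60 min. It was 1 without any 1 of the 6 low-leucine arrays at 30, 60 and 120 min or the first experiment's high-leucine array at 60 min. With arrays weighted by their quality the counts were 0 unblocked and 5 blocked. HSPB1, HSPA2 and HSPH1 probe set 206976_s_at were called in all 28 alternatives of the blocked fit that were run.

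**Figure D2:**
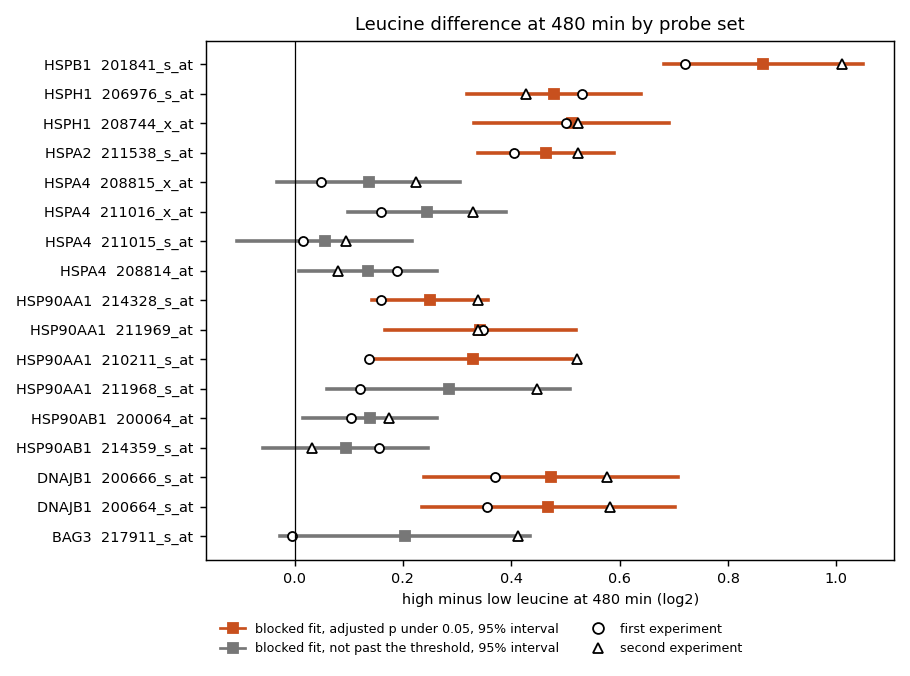
High minus low leucine at 480 min on the log2 scale for the 17 probe sets. Squares are the estimates with the 95% interval of the blocked fit (orange where the adjusted p is under 0.05, grey otherwise), and open circles and triangles are the first and second experiment alone. The 9 orange probe sets belong to HSPB1, HSPH1, HSPA2, HSP90AA1 and DNAJB1, and the single point below 0 is BAG3 in the first experiment.

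The 2 experiments gave the same sign at 16 of the 17 probe sets, all above 0 in both, against 30.9% of all probe sets above 0 in both. The exception was BAG3, with -0.004 in the first and 0.41 in the second experiment. By deposited intensity, the high-leucine array at 480 min was the highest of the 10 arrays in each experiment at 15 of the 17, against 9.4% of all probe sets. The exceptions were BAG3 and HSPA4 probe set 208814_at, where that array ranked second of 10 in the first experiment. On the normalized log2 scale 2 further probe sets had a higher array in the first experiment. For HSPA4 208815_x_at it was high leucine at 120 min (10.709 against 10.685). For HSP90AB1 214359_s_at low leucine at 30 min stood above it (12.175 against 12.135). The genes were chosen with earlier results of these data known, so these counts describe the members and do not set them apart.

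HSPB1 (Hsp27, 7:76302673-76304292) is a small heat shock protein that holds unfolded proteins and also binds actin. Its probe set 201841_s_at read 1371 and 1143 in low leucine at 480 min and 2433 and 2487 in high leucine, in the first and second experiment. The other 9 arrays of each experiment lay between 1116 and 1511 in the first and between 986 and 1184 in the second. Both high-leucine arrays at 480 min therefore stood above every other array. The difference was 0.87 ± 0.086 in the blocked fit (adjusted p = 3.9e-05), which is 1.82-fold on the scale of intensity plus 165.2. In the unblocked fit the same difference had an error of 0.16 and an adjusted p of 0.056. It was the largest difference among the 17 probe sets.

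**Figure D3:**
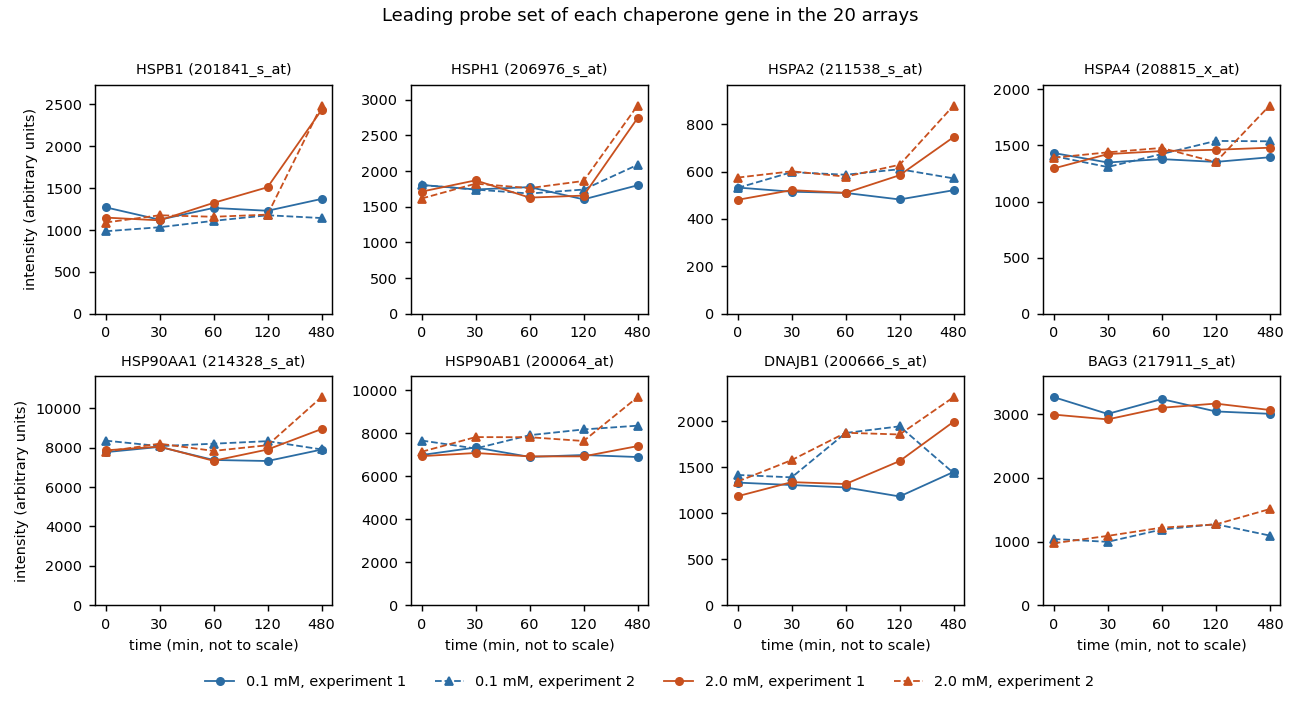
Intensity of the leading probe set of each of the 8 genes (the one with the highest mean) in all 20 arrays. The horizontal axis is time in minutes, evenly spaced and not to scale, the vertical axis is intensity in arbitrary units from 0, blue is 0.1 mM and orange 2.0 mM leucine, and circles with solid lines are the first and triangles with dashed lines the second experiment. HSPB1 reads 2433 and 2487 in high leucine at 480 min, and BAG3 runs from 2916 to 3265 in the first and from 975 to 1510.1 in the second experiment.

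HSPA2 is an Hsp70 protein best known from the testis and also made in other tissues (14:64535905-64543237). Probe set 211538_s_at read 521 and 571 in low leucine at 480 min and 745 and 878 in high leucine. The other 9 arrays ran from 481 to 584 in the first experiment and from 531 to 628 in the second. The high-leucine arrays at 480 min did not overlap with any other group. The difference was 0.46 ± 0.075 in the unblocked fit (adjusted p = 0.030) and 0.46 ± 0.059 in the blocked fit (adjusted p = 0.00033). That is 1.38-fold, with 0.41 in the first and 0.52 in the second experiment.

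The probe sets that name the stress-inducible Hsp70 gene HSPA1A also name its near-identical copy HSPA1B, and 200800_s_at names HSPA1L too, so their signal cannot be split. Probe set 200799_at read 1656 and 1235 in low leucine at 480 min and 3005 and 3092 in high leucine. Probe set 200800_s_at read 1179.7 and 1367 in low and 2135 and 3039 in high leucine. Their differences were 0.97 ± 0.11 (adjusted p = 0.00015) and 0.89 ± 0.13 (adjusted p = 0.0009) in the blocked fit, and neither passed in the unblocked fit (adjusted p = 0.11 and 0.28). The third, 202581_at, read 736 and 976 in high against 720 and 584 in low leucine and was not called (0.32, blocked adjusted p = 0.42). Its lowest high-leucine reading lay just above its highest low-leucine one. The 3 probe sets that name the constitutive Hsp70 gene HSPA8 with SNORD14C and SNORD14D differed by 0.27 (208687_x_at), 0.43 (210338_s_at) and 0.25 (221891_x_at). All 3 were called in the blocked fit (adjusted p = 0.040, 0.025 and 0.023) and none in the unblocked fit (0.74, 0.83 and 0.73).

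The Hsp110 proteins are large relatives of Hsp70 that exchange its nucleotide. HSPH1 (Hsp105, 13:31134973-31162388) read 1802 and 2089 in low leucine at 480 min and 2744 and 2920.1 in high leucine with probe set 206976_s_at. The other 9 arrays lay between 1604 and 1871 in the first experiment and between 1616 and 2089 in the second. Its second probe set, 208744_x_at, read 1224 and 1199 in low and 1848 and 1814 in high leucine. Both probe sets thus had their highest readings in the high-leucine arrays at 480 min. The differences were 0.48 and 0.51, and both were called in the blocked fit (adjusted p = 0.0021 and 0.0030). Only 206976_s_at passed in the unblocked fit (adjusted p = 0.035), where the error of 208744_x_at was 0.19 and its adjusted p 0.55.

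HSPA4, the other Hsp110 gene (Apg-2, 5:133052013-133106449), had 4 probe sets and none was called at 480 min. Its leading probe set 208815_x_at read 1394 and 1537 in low and 1479.6 and 1855 in high leucine, a difference of 0.14 ± 0.080 in the blocked fit (adjusted p = 0.43, 95% interval -0.03 to 0.31). The other probe sets differed by 0.24 (211016_x_at, blocked adjusted p = 0.060), 0.06 (211015_s_at) and 0.14 (208814_at). Without the second experiment's high-leucine array at 480 min the blocked difference of 208815_x_at was -0.0063 and that of 211015_s_at -0.026. The test of the difference between HSPA4 and HSPH1 was not made.

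DNAJB1 (Hsp40, 19:14514769-14560391) is the J protein that hands unfolded proteins to Hsp70. Probe set 200666_s_at read 1448 and 1436 in low leucine at 480 min and 1992 and 2259 in high leucine. Probe set 200664_s_at read 1354 and 1046 in low and 1840.5 and 1660.1 in high leucine. The high-leucine arrays at 480 min were the highest of their experiment with both probe sets. Each difference was 0.47 with an adjusted p of 0.024 in the blocked fit, and neither passed in the unblocked fit (adjusted p = 0.49 and 0.48). Neither was called in the blocked fit without the second experiment's low-leucine array or either high-leucine array at 480 min, or with array weights.

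BAG3, a partner of Hsp70 that links it to small heat shock proteins and autophagy (10:119651380-119677819), read 3003 and 1096 in low and 3063 and 1510.1 in high leucine at 480 min. Its level was set mainly by the experiment, and the high-leucine array at 480 min had rank 5 of 10 in the first experiment and rank 1 in the second. The difference was 0.20 ± 0.89 in the unblocked and 0.20 ± 0.11 in the blocked fit (adjusted p = 0.38, 95% interval -0.03 to 0.44). It was not called in either. Its sign turned with single arrays left out, to -0.49 unblocked without the low-leucine array of the second experiment at 480 min, to -0.28 unblocked without the high-leucine array of the first and to -0.015 blocked without that of the second.

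The Hsp90 genes are the stress-inducible HSP90AA1 (14:102080742-102139749) and the constitutive HSP90AB1 (6:44246194-44253883). The leading HSP90AA1 probe set 214328_s_at read 7895 and 7904 in low and 8935 and 10553 in high leucine at 480 min. The other 9 arrays lay between 7317 and 8047 in the first and between 7792 and 8350.2 in the second experiment. The difference was 0.25 ± 0.050 in the blocked fit (adjusted p = 0.011) and did not pass in the unblocked fit (0.25 ± 0.065, adjusted p = 0.20). Probe sets 211969_at and 210211_s_at differed by 0.34 and 0.33 and were called in the blocked fit (adjusted p = 0.029 and 0.041). The fourth, 211968_s_at, differed by 0.28 and was not called (adjusted p = 0.17). Without the second experiment's high-leucine array at 480 min no HSP90AA1 probe set was called in the blocked fit, with 214328_s_at at 0.18.

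The leading HSP90AB1 probe set 200064_at read 6903 and 8361 in low and 7410.2 and 9689 in high leucine. The values of the levels overlapped across experiments although high was above low within each. The difference was 0.14 ± 0.058 in the blocked fit (adjusted p = 0.24, 95% interval 0.02 to 0.26). Probe set 214359_s_at differed by 0.09 (adjusted p = 0.56), and by -0.0096 in the blocked fit without the first experiment's low-leucine array at 480 min. No test set HSP90AB1 against HSP90AA1.

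Before 480 min no member probe set was called different between the leucine levels in either fit of limma. Above 0 lay 8 of the 17 differences at 0 min, 15 at 30 min, 4 at 60 min and 14 at 120 min. The medians of the 17 were -0.016, 0.060, -0.027 and 0.091, against 0.011, 0.002, -0.0001 and 0.005 for all probe sets. The share of all probe sets above 0 was not computed, and several of the 17 read the same gene. At 0 min the 17 differences ran from -0.21 to 0.09 and the smallest blocked adjusted p was 0.22. Of all probe sets 0% were called unblocked and 0.578% blocked. An unadjusted p under 0.05 was reached by 1 of the 17 in each fit, against 862 (unblocked) and 2266 (blocked) of all 13329. At 30 min the 17 ran from -0.05 to 0.21, and 0% of all probe sets were called in both fits. None of the 17 was at an unadjusted p under 0.05, against 154 and 593 of all. At 60 min the 17 ran from -0.08 to 0.10, and again 0% of all were called in both fits. None of the 17 was at that p, against 102 and 419 of all. At 120 min the 17 ran from -0.07 to 0.19, and 0.0075% and 0.03% of all were called. At that p were 0 of the 17 unblocked and 1 blocked, against 137 and 601 of all. HSPB1 in the first experiment read 1511 in high and 1230.3 in low leucine at 120 min, and 1184 and 1177 in the second.

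Averaged over the 5 times, all 17 differences lay between 0.02 and 0.24. The unblocked fit gave 0 calls, against 0.0075% of all probe sets. An unadjusted p under 0.05 was reached there by 3 of the 17, against 309 of all 13329. The blocked fit called 1, HSPB1 at 0.24 ± 0.039 (adjusted p = 0.017), against 0.173% of all. By time, from 0 to 480 min, the HSPB1 differences were 0.05, 0.07, 0.04, 0.17 and 0.87, and only the last was called. The HSPB1 average missed the threshold without the second experiment's low-leucine array at 0 or 60 min. The same held without the first experiment's low-leucine array at 120 min or its high-leucine array at 60 min.

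Set against 0 min, HSPB1, HSPH1 and HSPA2 rose by 480 min in high leucine in both fits, by 0.49 to 0.95. HSPB1 rose by 0.95 (unblocked adjusted p = 0.013), from 1149 and 1090 to 2433 and 2487. HSPH1 206976_s_at rose by 0.61 (adjusted p = 0.0042), from 1713 and 1616 to 2744 and 2920.1, and HSPA2 by 0.49 (adjusted p = 0.0082), from 481 and 574 to 745 and 878. These were the 3 unblocked calls, against 1.72% of all probe sets in either direction and 1.13% higher. The blocked fit called 11 of 17 probe sets of 6 genes, all higher, against 15.2% in either direction and 8.64% higher. The further calls were 208744_x_at of HSPH1 (0.57), both DNAJB1 probe sets (0.58 and 0.52), all 4 of HSP90AA1 (0.21 to 0.54) and 211015_s_at of HSPA4 (0.30, adjusted p = 0.015). The median of the 17 was 0.38 and that of all probe sets -0.02. Without the second high-leucine array at 480 min the counts were 0 unblocked and 6 blocked. Leaving out a high-leucine array at 0 min left 1 unblocked for either array, and 6 blocked for the second. With median centring the unblocked count was 5.

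In low leucine the same interval gave 0 calls in either fit, with none at an unadjusted p under 0.05. At that p were 734 (unblocked) and 2066 (blocked) of all 13329 probe sets. The 17 changes from 0 to 480 min ran from -0.17 to 0.15 with a median of 0.05, against 0% of all probe sets called unblocked and 0.233% blocked. HSPB1 read 1272 and 986 at 0 min and 1371 and 1143 at 480 min, a difference of 0.14 ± 0.086 (blocked adjusted p = 0.48). Every interval of the blocked fit in low leucine included 0.

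**Figure D4:**
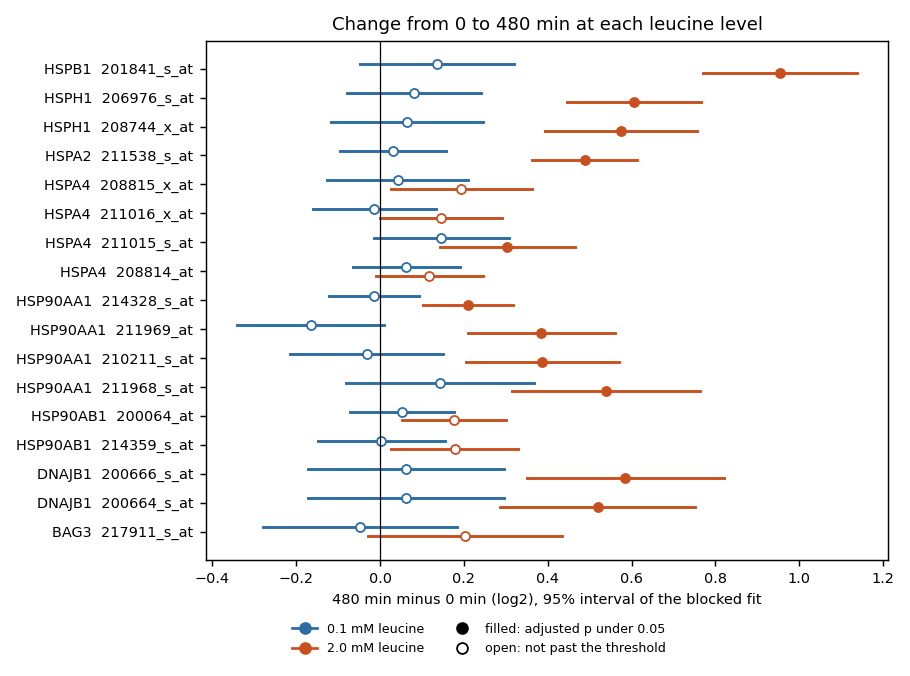
Change from 0 to 480 min on the log2 scale for the 17 probe sets, in 0.1 mM (blue) and 2.0 mM leucine (orange), with 95% intervals of the blocked fit. Filled points have an adjusted p under 0.05 and open points do not. The low-leucine points lie between -0.17 and 0.15 and all are open, and 11 of the high-leucine points are filled.

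The change in high leucine minus the change in low leucine was tested directly. The unblocked fit gave 0 calls among the 17 probe sets, against 0% of all probe sets. An unadjusted p under 0.05 was reached there by 7 of the 17, against 1038 of all 13329. The blocked fit called 5 probe sets of 4 genes, against 3.82% of all. These were HSPB1 (0.82 ± 0.12, adjusted p = 0.0028), HSPH1 206976_s_at (0.53, 0.015) and 208744_x_at (0.51, 0.029), HSPA2 (0.46, 0.0089) and HSP90AA1 211969_at (0.55, 0.018). For 211969_at the level at 0 min, 4989 and 5662 in high against 6198 and 6884 in low leucine, entered the difference too. DNAJB1 came to 0.52 and 0.46 and was not called (adjusted p = 0.070 and 0.11). The blocked count was 2 without the second high-leucine array at 480 min and 8 without the first, and 3 without the first low-leucine array at 480 min, the second low-leucine array at 0 min or the first high-leucine array at 0 min. It was 2 with array weights and 8 with median centring.

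Averaged over both leucine levels, no member was called as changed from 0 min to 30, 60 or 120 min in either fit. All probe sets were called at 0.0075% (unblocked) and 0.0075% (blocked) at 30 min, 0.0075% and 2.54% at 60 min, and 0% and 0.893% at 120 min. No member was at an unadjusted p under 0.05 in the unblocked fit, against 545, 1159 and 902 of all 13329 probe sets at the 3 times. In the blocked fit 0, 3 and 4 of the 17 were, against 1787, 3181 and 2595 of all. DNAJB1 had the largest values, 0.18 and 0.20 at 60 min and 0.22 and 0.20 at 120 min, with blocked adjusted p between 0.14 and 0.18.

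The DNAJB1 readings at these times rose more in the second experiment, a difference that was not called. In the second, 200666_s_at read 1415 and 1343 at 0 min (low, high), 1870.5 and 1873 at 60 min and 1942 and 1854 at 120 min. In low leucine it was back at 1436 by 480 min, while high leucine read 2259. In the first experiment it read 1332 and 1184 at 0 min, 1279.8 and 1317 at 60 min and 1182 and 1566 at 120 min. The change at 60 min was thus 0.04 in the first and 0.33 in the second experiment, and the difference of 0.29 was not called (adjusted p = 0.59, against 0.72% of all probe sets). At 120 min the difference was 0.28 (adjusted p = 0.77, against 0.653%), and no member was called at either time. Probe set 200664_s_at changed by 0.03 in the first and 0.37 in the second experiment at 60 min, and by 0.03 and 0.37 at 120 min.

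Between the experiments, over all groups, 13 of the 17 probe sets differed, 3 higher and 10 lower in the second, a share to be read against 62% of all probe sets. BAG3 was lower in the second experiment by a log2 difference of -1.37 ± 0.049 (adjusted p = 4.8e-13). It read 2916 to 3265 in the first (median 3052) and 975 to 1510.1 in the second (median 1143), with no overlap, and 141 of the 13329 probe sets differed more in size. HSP90AA1 211968_s_at followed at -0.47, and its other probe sets lay between -0.14 and -0.04. Probe sets of 1 gene could point in opposite directions: DNAJB1 200666_s_at was higher by 0.18 and 200664_s_at lower at -0.18, and HSPA4 208814_at was higher by 0.15 while 211016_x_at and 211015_s_at were lower at -0.17 each. HSPH1 208744_x_at was lower at -0.27, and 206976_s_at at -0.02 was not called. What set the experiments apart was not tested.

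**Figure D5:**
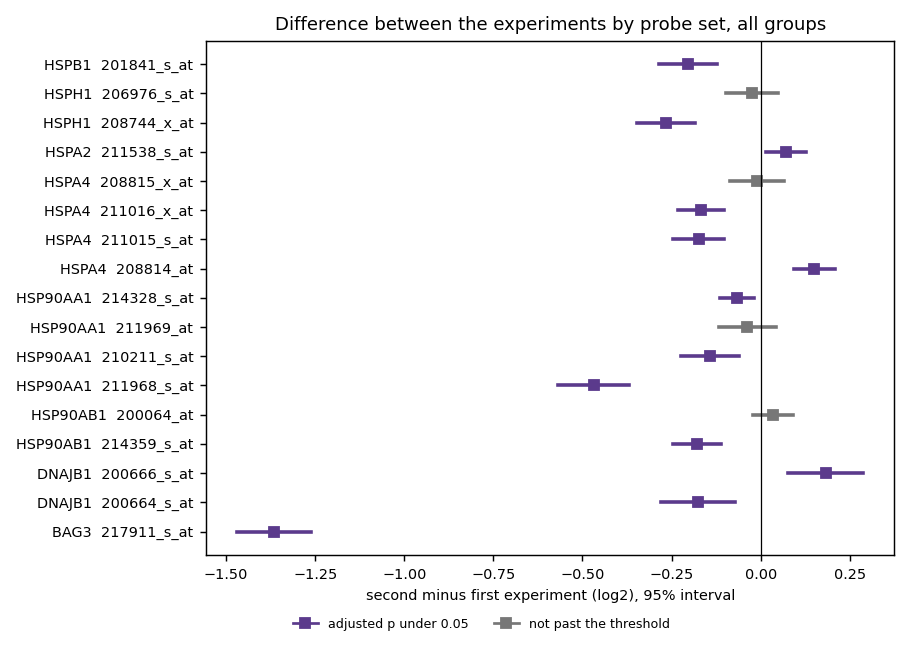
Second minus first experiment on the log2 scale for the 17 probe sets over all 10 groups, with 95% intervals. Purple marks an adjusted p under 0.05 and grey marks the rest. BAG3 lies at -1.37, apart from the other 16, which lie between -0.47 and 0.18.

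Other genes of the chaperone network were followed through 8 lists of 70 genes, of which 60 had a leading probe set that passed the filter. At 480 min the blocked fit called 3 of the 60 higher and 5 lower in high leucine, and the unblocked fit called 1, against 2.33% higher, 1.7% lower and 0.302% unblocked among the leading probe sets of all 8280 genes. The median of the 60 was 0.01 and that of all genes -0.01. None of 5 small heat shock proteins, 10 J proteins, 11 Hsp90 co-chaperones or 3 heat shock factor genes was called, with medians of 0.16, 0.04, 0.06 and -0.06.

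Of 3 other cytosolic Hsp70 and Hsp110 genes, HSPA14, a ribosome-associated Hsp70, was higher by 0.29 (blocked adjusted p = 0.0073), from 762 and 736 in low to 997 and 917 in high leucine. Of 8 nucleotide exchange and binding factors, BAG2 was higher by 0.34 (0.0016), while the list's median was -0.05. Of 12 chaperonin and prefoldin genes, the prefoldin subunit PFDN2 was lower at -0.26 (0.024), and the median was 0.06. None of these 3 genes passed in the unblocked fit.

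Among 8 chaperone genes of mitochondria or the endoplasmic reticulum, the blocked fit called 4 lower and 1 higher, and their median was -0.18. They are of the Hsp10, Hsp60, Hsp70, Hsp110 and Hsp90 families, and no member here is an Hsp10 or Hsp60. HSPA9, the mitochondrial Hsp70, read 3286 and 3667 in low and 2343 and 2353 in high leucine, a difference of -0.55, and was called in both fits (adjusted p = 0.018 unblocked and 0.00031 blocked). HSPA5 (BiP), the Hsp70 of the endoplasmic reticulum, read 4927 and 5478 in low and 3844 and 3544 in high leucine, a difference of -0.51 (blocked adjusted p = 0.0030). HSPA13 was at -0.37 (0.033) and HYOU1, the Hsp110 relative of that compartment, at -0.21 (0.024). HSPE1, the mitochondrial Hsp10, was the one called higher, at 0.55 (0.00057), from 1564 and 1253 to 2269 and 2068. HSPD1, its Hsp60 partner, was at -0.04 and HSP90B1 at -0.13, and neither was called. The difference between these genes and the cytosolic members was not tested.

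The genes with the profile most like each member were found by the lower of its Pearson correlations in the 2 experiments, over 10 arrays each and 8280 genes. By deposited intensity, 7 of the 8 leading probe sets share the high-leucine array at 480 min as the highest of those arrays. The correlations used normalized log2 values. On these the leading HSPA4 probe set was higher in high leucine at 120 min in the first experiment (10.709 against 10.685). The nearest were EBP (0.947) and IDI1 (0.942) for HSPB1, MLLT11 (0.947) and DNAJA1 (0.91) for HSPH1, and ZDHHC3 (0.92) and WDR37 (0.909) for HSPA2. For DNAJB1 they were BDKRB1 (0.849) and PPP2CA (0.839), for HSP90AA1 CDK2AP1 (0.856) and ZC3HAV1 (0.834), and for HSP90AB1 ATR (0.943) and ICAM2 (0.805). HSPA4 had TBC1D1 (0.794) and PGAP6 (0.782), and BAG3 had CD59 (0.82) and PC (0.773).

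Among the members, HSPB1 and HSPA2 ran most alike, with correlations of 0.944 in the first and 0.977 in the second experiment. DNAJB1 and HSPA2 reached 0.967 in the first and 0.745 in the second. BAG3 ran with the other 7 genes at 0.648 to 0.96 in the second experiment and at -0.322 to 0.178 in the first. HSPA4 and HSP90AB1 came to 0.944 in the second and -0.0094 in the first. These values rest on 10 arrays per experiment and are given as a description. The high-leucine array at 480 min was the highest for each gene in both experiments, except for BAG3 and HSPA4 in the first.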

How the data were processed

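RNA from THLE-3 cells was read by probe set on 20 arrays. The values deposited by the authors are linear probe set intensity values, and their summarisation and scaling are not given in the sources used here. Symbols came from GEO's platform annotation, where 19065 probe sets carry 1 symbol, 1043 several and 2107 none, and all 20 value columns matched their labels by title.

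Intensities were raised by a pseudocount of 165.2 (the 10th percentile of an array, as a median over arrays), put on the log2 scale and quantile normalized. Fold changes are on this scale, which understates those of weak probe sets. The 13329 probe sets whose mean reached the 40th percentile were kept. limma 3.58.1 (R 4.3.3) was run on the 20 arrays with a mean for every group and an intensity trend of the variances, and p-values are two-sided with Benjamini-Hochberg adjustment across the kept probe sets. The unblocked fit had 10 residual degrees of freedom and the blocked fit, with the labelled experiment as a term, 9. The labels name the experiment, and the differences between the experiments correlated at 0.808 to 0.928 over the 45 pairs of groups. The blocked fit therefore took the arrays as paired by experiment. The unblocked fit did not, so its errors include the shift between the experiments. The 60 and 120 min changes of the 2 experiments were compared in a further fit of experiment by time with a leucine term. The number of arrays limits the precision. The scripts were tested on simulated data.

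The members and gene lists were chosen with earlier results of these data known. All member probe sets are named. A list gene is named where its leading probe set passed in either fit, and HSPD1 and HSP90B1 were added after their values were seen. The 2 most alike genes per member are named. Alternatives were another pseudocount, normalization, filter, variance prior, array weights, 1 probe set per gene and each array left out. Promoter windows and gene positions are from RefSeq tables of GRCh38.p14.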

Additional observations from a re-analysis of the deposited data

Results flagged for a closer look

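For 5 probe sets the change from 0 to 480 min differed between the leucine levels by a test of the difference itself, in the blocked fit. The change in high leucine exceeded that in low leucine by 0.819 for HSPB1 201841_s_at, by 0.526 for HSPH1 206976_s_at and by 0.510 for HSPH1 208744_x_at. It did so by 0.457 for HSPA2 211538_s_at and by 0.550 for HSP90AA1 211969_at. None of the 5 passed in the unblocked fit. Groups of 2 arrays are too small for a search for outlying samples.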

How the results depend on the processing

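For the leucine difference at 480 min the unblocked count of 2 called probe sets became 9 with the replicate block and 0 with array weights, and ranged from 0 to 3 with 1 array left out. The blocked count of 9 became 5 with array weights and ranged from 3 to 10 with 1 array left out. Averaged over times, the count of 0 became 1 with the block, and that ranged from 0 to 2. For the change of the difference from 0 to 480 min, 0 became 5 with the block. That count became 8 with median centring and 2 with array weights, and ranged from 2 to 8. For 480 against 0 min in high leucine, 3 became 11 with the block and 5 with median centring, and ranged from 0 to 4 with 1 array left out. The blocked count of 11 became 16 with median centring and 15 with the values as deposited, and ranged from 6 to 15. For 120 against 0 min the blocked count of 0 ranged from 0 to 1. The settings combined with the block were chosen after seeing the data, and the cause of these shifts was not tested.

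With 1 array left out the 480 min difference ranged from -0.00626 to 0.280 for HSPA4 208815_x_at, from -0.0261 to 0.137 for HSPA4 211015_s_at and from -0.00959 to 0.198 for HSP90AB1 214359_s_at in the blocked fit. For BAG3 it ranged from -0.490 to 0.899 unblocked and from -0.0148 to 0.424 blocked. The block changed no other count. No other value of a member at 480 min changed sign under the alternatives run. With a group left at 1 array, that array is assumed to vary like the others.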
